A study of Solea senegalensis with 15 samples.

Results

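The testis of Senegalese sole males given recombinant Lh (rLh, labelled rssLH) was compared directly with that of males given recombinant Fsh (rFsh, labelled rssFSH), with 5 fish per hormone and 1 RNA-seq library per fish. These 10 libraries are part of 15, the other 5 being from saline-injected fish, which were left out of the tests and are given as background. The males were two-year-old offspring of wild-caught parents, and each hormone was injected into the muscle once a week at 18 µg/kg for 6 weeks. A gene was tested where at least 1 of the 10 fish had 50 counts, which held for 20876 of the 28921 genes in the count table. Because whole testis was sequenced, fewer cells of a type and less RNA per cell cannot be told apart, and the hormones were given to intact fish, so effects that reach the testis through other tissues are included.

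Fsh and Lh are pituitary glycoprotein hormones. Fsh acts mainly through its receptor on Sertoli cells, which nurse the germ cells, and Lh through its receptor on Leydig cells, which make androgens. In fish both hormones can drive androgen synthesis, and the androgen 11-ketotestosterone carries germ cells through meiosis and into sperm. The comparison of rLh with rFsh asks which transcripts separate these 2 signals.

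The libraries held 50.7 to 76.2 M reads assigned to genes. Testis markers were abundant in each of the 10 libraries: piwil1, a germ cell factor that silences transposons, lay between 426 and 826 CPM (counts scaled to a library of 1 M reads), the meiotic gene sycp1 between 320 and 504 CPM, and gsdf, a Sertoli cell growth factor, between 1262 and 2713 CPM. The annotated fshr and sycp3 were at 0 counts in each of the 10 libraries. Markers of other cells were present at levels that differed widely. The smooth muscle gene myh11a lay between 292 and 555 CPM, the macrophage gene mpeg1.1 between 23.9 and 49.2 CPM, alas2, of red blood cells, between 3.50 and 53.7 CPM, fgb, a liver gene for fibrinogen, between 1.87 and 3.10 CPM, and ckma, a skeletal muscle enzyme, between 0.0166 and 0.381 CPM. One library, rFsh 69, stood apart from the other rFsh-treated fish, and values without it are given beside many of the results that it moves.

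The hormone groups differed as a whole in their mean levels, although single fish were not all set apart by hormone. The difference between the groups took 18.68% of the squared distance between fish in log2 CPM over all tested genes (exact permutation test over fish, one-sided for a larger share, p = 0.02381, n = 5 and 5). Over the 500 most variable genes the share was 25.59% (exact permutation p = 0.007937, the smallest that 5 against 5 fish allow). With the 10 fish cut to 9 by leaving out rFsh 64, rLh 67 or rLh 63, the exact permutation p was 0.06349, 0.06349 and 0.0873.

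**Figure D1:**
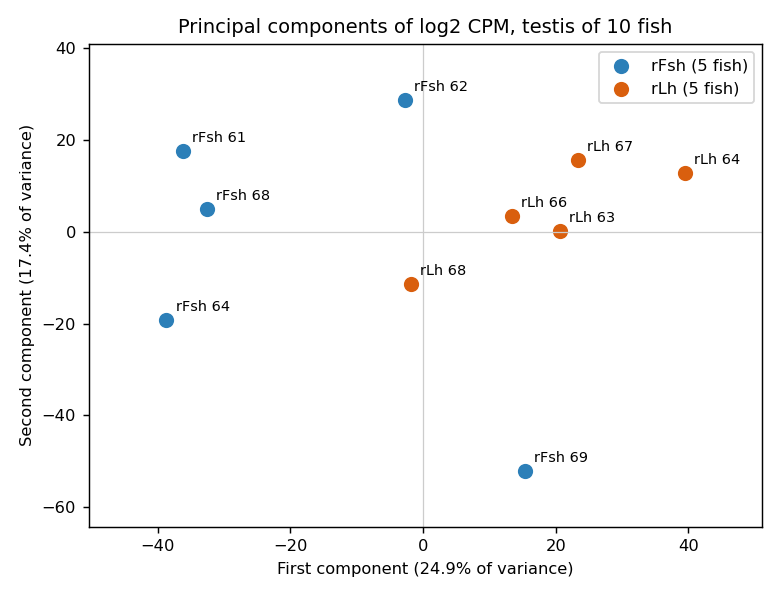
First against second principal component of log2 CPM over all tested genes, 1 point per fish, blue for rFsh and orange for rLh, with the share of variance on each axis. rFsh 61, 64 and 68 lay between -38.69 and -32.65 on the first component, the rLh fish between -1.77 and 39.44, and rFsh 69 at 15.35, among the rLh fish.

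On the first component, which held 24.87% of the variance, rFsh 61, 64 and 68 were at the low end and rFsh 62 was at -2.676, next to rLh 68 at -1.77. rFsh 69 lay at 15.35 and was also the lowest fish on the second component, at -52.09. The groups therefore overlapped on this component through rFsh 69.

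A total of 6 genes differed between the hormones at an adjusted p below 0.05 (edgeR quasi-likelihood F test, Benjamini-Hochberg adjusted), which was 0.0287% of those tested. Of these, 3 were higher after rLh and 3 were lower (0.0144% each). At an unadjusted p below 0.05 there were 2038 genes, 1192 higher and 846 lower after rLh. DESeq2 (Wald test) called 204 genes on the same counts, 123 higher and 81 lower (0.977%, 0.589% and 0.388% of genes), and its calls included the same 6. All 5 rLh fish were above all 5 rFsh fish for 172 genes (0.824%) and below them for 147 genes (0.704%). With levels scaled over the 10 fish alone, without saline, these counts were 209 and 125.

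The gene with the smallest p was LOC122759583 (LG18, 18464388 to 18465531), which the study matched to human DRD5, a D1-like dopamine receptor that raises cAMP in mammals. Its level was 13.7, 5.91, 5.10, 2.19 and 2.68 CPM in rLh 63, 64, 66, 67 and 68, and 0.133, 0.208, 0.149, 0.218 and 0.172 CPM in rFsh 61, 62, 64, 68 and 69. The groups did not overlap, and rLh 63 was the highest. The rFsh fish had 9 to 12 counts each, and the rLh fish 136 to 828. Its level rose with rLh relative to rFsh by 5.09 ± 0.53 on the log2 scale (SE, n = 5 and 5, edgeR adjusted p = 0.0153). Saline fish spanned 0.451 to 32.0 CPM, above each rFsh fish and on both sides of the rLh fish.

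The other 2 genes that were higher after rLh are long noncoding RNAs. LOC122766001 (LG1, 27702074 to 27703625) had 0 to 3 counts in each rFsh fish and 24 to 231 in each rLh fish. Its level was 3.83, 1.29, 1.3, 0.856 and 0.453 CPM in the rLh fish in the order above, against at most 0.0398 CPM in the rFsh fish. The log2 difference between rLh and rFsh was 6.22 ± 0.75 (edgeR adjusted p = 0.031). Saline fish spanned 0.0752 to 5.47 CPM, above each rFsh fish and on both sides of the rLh fish. The size of this difference rests on very few rFsh counts. Across the 10 fish, its log2 CPM followed that of LOC122759583 (Pearson r = 0.98, a description over fish that include the group difference).

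LOC122772693 (LG7, 3558764 to 3596426) was at 14.4, 5.93, 5.83, 12.9 and 3.78 CPM in rLh 63, 64, 66, 67 and 68. In rFsh 61, 62, 64, 68 and 69 it was at 1.5, 1.38, 1.06, 0.635 and 1.52 CPM. The groups did not overlap, with rLh 63 and 67 well above the other rLh fish. It rose by 2.82 ± 0.40 on the log2 scale (edgeR adjusted p = 0.0479), and saline fish ranged from 1.43 to 23.0 CPM.

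**Figure D2:**
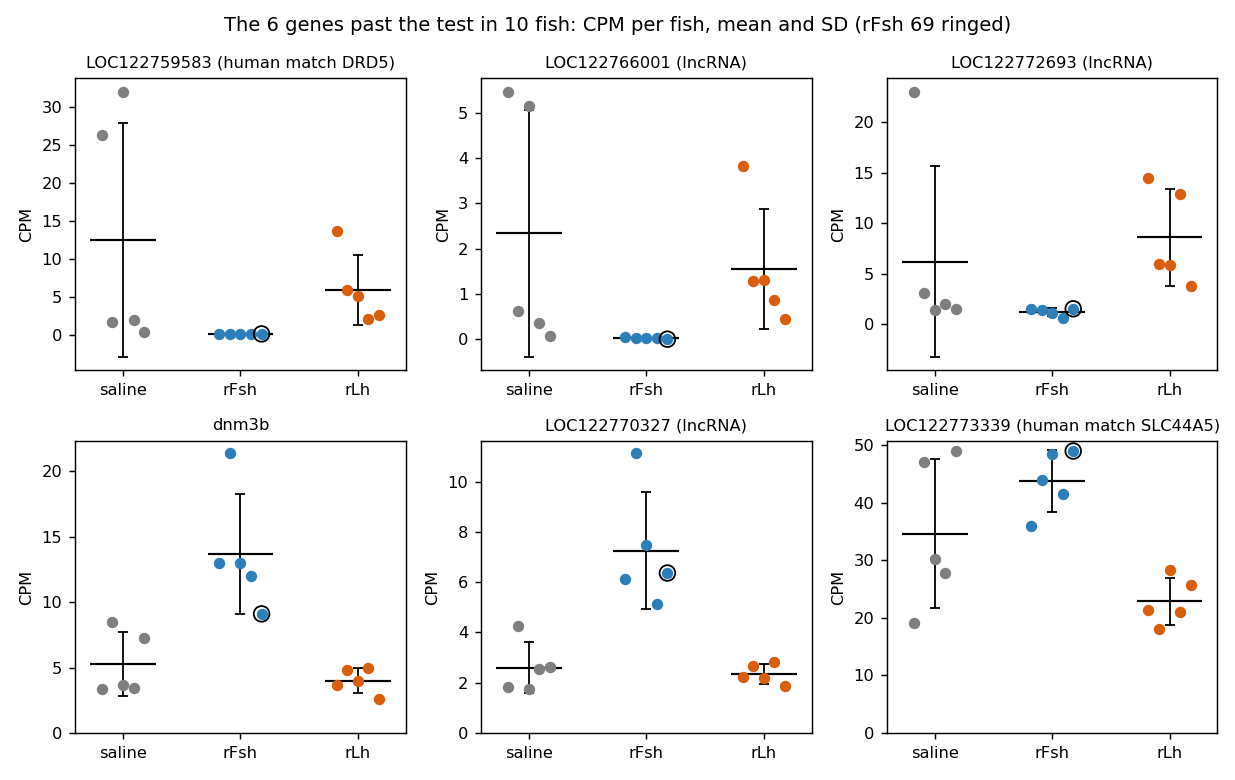
CPM of the 6 genes that passed the test, 1 point per fish for saline, rFsh and rLh (5 each), with the mean as a line, the SD as a bar, and rFsh 69 ringed. In each panel the rLh and rFsh fish do not overlap, while saline fish reach both levels for LOC122773339, at 19.0 to 48.9 CPM.

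Among the genes that were lower after rLh, dnm3b and an lncRNA lie side by side. dnm3b (LG1, 7203500 to 7224394) encodes a dynamin, a GTPase that pinches off membrane vesicles. Its level was 13, 21.4, 13, 12.0 and 9.10 CPM in rFsh 61, 62, 64, 68 and 69, and 3.70, 4.78, 3.96, 4.97 and 2.63 CPM in rLh 63, 64, 66, 67 and 68. The lowest rFsh fish was above the highest rLh fish. The level was lower after rLh than after rFsh by 1.76 ± 0.24 on the log2 scale (edgeR adjusted p = 0.0479). Saline fish were at 3.32 to 8.49 CPM, below each rFsh fish.

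The lncRNA LOC122770327 (LG1, 7186967 to 7200218) was lower after rLh than after rFsh by 1.61 ± 0.22 on the log2 scale (edgeR adjusted p = 0.0479). Its level was 6.14, 11.1, 7.49, 5.12 and 6.36 CPM in the rFsh fish and 2.21, 2.67, 2.2, 2.81 and 1.85 CPM in the rLh fish. Saline fish were at 1.74 to 4.27 CPM, below each rFsh fish and on both sides of the rLh fish. It overlaps LOC122770295 and LOC122770311 in the annotation, so its counts are uncertain. Between it and dnm3b lies a second lncRNA, LOC122770338 (LG1, 7200285 to 7203378), at 2.12 to 5.70 CPM in the rFsh fish and 0.564 to 1.2 CPM in the rLh fish. This second lncRNA did not pass the test (log2 difference -1.78, edgeR adjusted p = 0.139), and rFsh 62 was the highest fish for each of the 3 neighbours. Over the 10 fish, log2 CPM of dnm3b had a Pearson r of 0.98 with LOC122770327 and 0.90 with LOC122770338, given as a description since the fish share the group difference.

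LOC122773339 (LG1, 22230764 to 22251232), matched by the study to human SLC44A5, a choline transporter-like protein, was the most abundant of the 6. It was at 35.9, 43.9, 48.4, 41.5 and 48.9 CPM in the rFsh fish and 21.3, 18.0, 28.2, 21.1 and 25.7 CPM in the rLh fish. The groups were separate, and it was lower after rLh than after rFsh by 0.92 ± 0.13 on the log2 scale (edgeR adjusted p = 0.0479). It overlaps a tRNA gene in the annotation. Saline fish covered both ranges, at 19.0 to 48.9 CPM.

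The adjusted p of these genes depended on single fish. Leaving out 1 fish at a time gave between 0 and 5 genes for 9 of the fish, with 0 genes without rFsh 61 or rFsh 64, whereas leaving out rFsh 69 gave 68 genes, 33 higher and 35 lower after rLh (edgeR adjusted p below 0.05 in 0.326% of genes tested). All 6 genes were among these 68. With DESeq2, 1588 genes passed without rFsh 69 (7.61%). The log2 differences of the 6 genes stayed on 1 side in each of these fits, for example 4.51 to 5.30 for LOC122759583 and -1.87 to -1.53 for dnm3b.

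**Figure D3:**
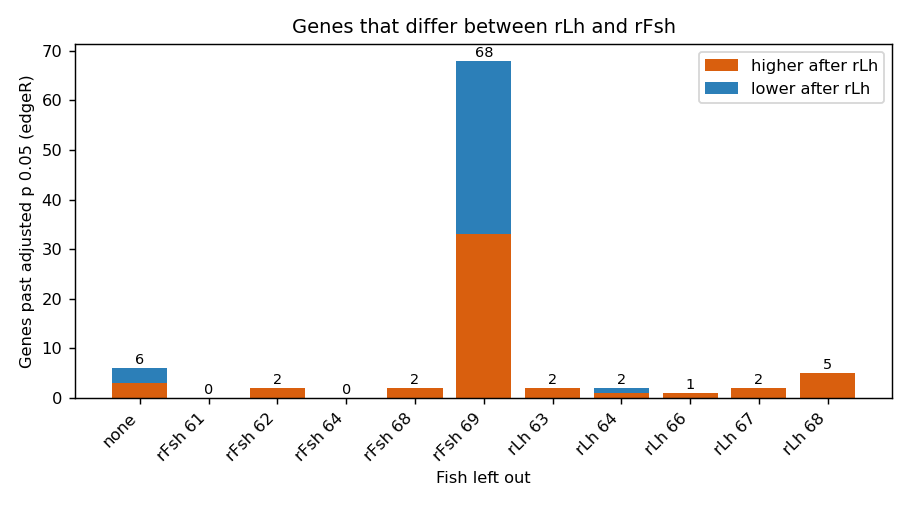
Number of genes past an edgeR adjusted p of 0.05 with no fish left out and with each fish left out in turn, orange for higher and blue for lower after rLh. The count is 6 with all 10 fish, 0 to 5 without 1 of 9 fish, and 68 without rFsh 69.

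Other genes had groups that did not overlap but did not pass edgeR, although DESeq2 called them. For the 10 genes described first, its adjusted p ranged from 5.34e-08 for LOC122785777 and cplx2 to 0.000986 for abcg2b. LOC122785777, matched to human NUGGC, a nuclear GTPase known from germinal centre B cells, was at 176, 60.8, 53.4, 156 and 34.2 CPM in rLh 63, 64, 66, 67 and 68. In rFsh 61, 62, 64, 68 and 69 it was at 0.530, 8.20, 1.79, 1.2 and 1.18 CPM (log2 difference 5.26 ± 0.78, edgeR adjusted p = 0.0608). rLh 63 and 67 were the highest fish, as for LOC122772693 and for noxo1a, an organiser of NADPH oxidase, which was at 2.1 to 7.89 CPM after rLh and 0.473 to 1.52 CPM after rFsh (log2 difference 2.78, edgeR adjusted p = 0.108). Saline 63 had 246 CPM of LOC122785777, more than any hormone-treated fish.

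LOC122783953, matched to human APOB, the structural protein of lipoproteins, was at 16.3, 19.9, 7.24, 15.6 and 5.86 CPM in the rLh fish and 3.32, 2.48, 2.15, 2.27 and 4.28 CPM in the rFsh fish (log2 difference 2.18, edgeR adjusted p = 0.0839). The saline fish were at 16.0 to 30.1 CPM, above each rFsh fish and above 3 of the 5 rLh fish. trim46a, a microtubule-binding protein, was at 4.51 to 5.67 CPM after rLh and 2.83 to 3.16 CPM after rFsh (log2 difference 0.79, edgeR adjusted p = 0.0839). LOC122769366, matched to the tRNA methyltransferase TRMT2A, and LOC122776189, matched to DENND5B, a regulator of vesicle traffic, each had a log2 difference of 1.09 (edgeR adjusted p = 0.103 and 0.189).

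On the side higher after rFsh, cplx2, a complexin that controls vesicle fusion, was at 4.64, 6.93, 4.26, 6.42 and 3.92 CPM in the rFsh fish and 1.24, 2.18, 1.70, 1.42 and 2.15 CPM in the rLh fish (log2 difference -1.57 ± 0.23, edgeR adjusted p = 0.0571). The groups did not overlap, and saline fish, at 1.67 to 6.54 CPM, covered both. LOC122776249, matched to PDE3A, a phosphodiesterase that breaks down cAMP, was at 111 to 131 CPM after rFsh and 84.7 to 101 CPM after rLh (log2 difference -0.36, edgeR adjusted p = 0.202). kbtbd3 had a log2 difference of -0.55 (edgeR adjusted p = 0.117), and abcg2b, an efflux transporter, one of -1.41 (edgeR adjusted p = 0.202). Without rFsh 69, LOC122785777, noxo1a, LOC122783953, trim46a and cplx2 passed edgeR (adjusted p of 0.0355 to 0.0455). With another fish left out instead, their edgeR adjusted p rose as far as 0.191 for cplx2 and 0.372 for noxo1a. The log2 differences of LOC122785777 and trim46a were slightly smaller without rFsh 69, at 5.08 and 0.76.

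Some large differences were in genes with few counts in 1 group. The lncRNA LOC122760671, on an unplaced scaffold, had 0 counts in each rFsh fish and 6 to 1128 counts in the rLh fish, with rLh 64 at 18.5 CPM and the other rLh fish at 0.113 to 1.61 CPM. Against a floor of 3 counts per library, its mean after rLh was at least 89.9-fold higher with rLh 64 and at least 17.6-fold higher without it, and it did not pass edgeR (adjusted p = 0.336). Its saline level was at most 0.0191 CPM. LOC122766360, matched to the sulfotransferase CHST12, was at 17.8 CPM in rFsh 64 and 0.871 to 3.83 CPM in the other rFsh fish, against 0.307 to 0.755 CPM after rLh (log2 difference -3.15, or -1.61 in the fit nearest to 0 with 1 fish left out, edgeR adjusted p = 0.336).

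For the receptors and products of the 2 hormones, no gene passed the edgeR test. lhcgr, the Lh receptor, was at 92.4, 97.7, 77.5, 173 and 85.5 CPM in rLh 63, 64, 66, 67 and 68, and 93.0, 84.5, 76.9, 89.4 and 37.1 CPM in rFsh 61, 62, 64, 68 and 69. The groups overlapped, with rLh 67 alone high and rFsh 69 alone low (log2 difference 0.48 ± 0.27, or 0.31 without rFsh 69, edgeR adjusted p = 0.56). star, which brings cholesterol into mitochondria, was at 95.8, 78.2, 104, 140 and 101 CPM after rLh and 198, 166, 120, 191 and 66.9 CPM after rFsh. Its log2 difference was -0.50 ± 0.26 with all fish and -0.69 without rFsh 69, and its edgeR adjusted p was 0.54 and 0.0912. star2, more abundant, was at 299 to 477 CPM after rLh and 240 to 880 CPM after rFsh. The log2 difference of star2 was -0.41, and -0.60 without rFsh 69 (edgeR adjusted p = 0.622 and 0.143). Neither gene passed DESeq2 with all fish. Without rFsh 69 both did (adjusted p = 0.00749 for star and 0.0351 for star2), as did 7.61% of all tested genes.

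Of the 11 steroid enzymes tested, 5 were higher and 6 lower after rLh, with a median log2 difference of -0.07. None of the 11 was a cyp gene, such as cyp11a1 or cyp17a1, so the list covers androgen synthesis only in part. Lists were matched by gene symbol, and 39.38% of the tested genes had a LOC identifier in place of one. hsd3b1, which makes the hormonally active steroid ring, was at 624 to 1176 CPM after rLh and 348 to 1031 CPM after rFsh, and hsd11b2, which takes part in making 11-ketotestosterone, at 461 to 1121 CPM and 194 to 784 CPM. Their log2 differences of 0.23 and 0.35 were 0.06 and 0.14 without rFsh 69, and -0.24 and -0.25 with the fish number as a block. In that block fit only rFsh 64, rFsh 68, rLh 64 and rLh 68 bear on the difference. rFsh 69 was the lowest of the 10 fish for lhcgr, star, hsd3b1 and hsd11b2. insl3, a Leydig cell peptide, was at 276 to 522 CPM after rLh and 159 to 922 CPM after rFsh. Its log2 difference was -0.24 ± 0.39 (SE), smaller than its error, and -0.45 without rFsh 69.

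amh, by which Sertoli cells hold back spermatogonia in fish, was at 184, 175, 143, 168 and 205 CPM in the rLh fish and 151, 142, 104, 125 and 122 CPM in the rFsh fish. The 2 groups overlapped only through rLh 66, which was below rFsh 61. The log2 difference of 0.46 ± 0.12 passed DESeq2 (adjusted p = 0.0442) and not edgeR (adjusted p = 0.336), and saline fish were at 140 to 216 CPM. gsdf had a log2 difference of 0.14 ± 0.18, and wnt4, a signal from somatic cells, one of 0.71 ± 0.24 (edgeR adjusted p = 0.799 and 0.416). Without rFsh 69 these were 0.34 and 0.98 (edgeR adjusted p = 0.191 and 0.0589), and wnt4 passed DESeq2 (adjusted p = 4.11e-05).

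rxfp1, a receptor for relaxin, showed how far rFsh 69 departed. It was at 6.88, 3.58, 0.994 and 1.45 CPM in rFsh 61, 62, 64 and 68 but at 118 CPM in rFsh 69, against 107, 92.6, 37.1, 83.5 and 21.1 CPM in the rLh fish. With all 10 fish the log2 difference was 1.40 ± 1.11 (edgeR adjusted p = 0.678), and without rFsh 69 it was 4.40 ± 0.68 (edgeR adjusted p = 0.0442). Saline fish spanned 10.1 to 154 CPM. The other relaxin family receptors rxfp2a, rxfp3.2b and rxfp3.3a1 and the oxytocin receptor oxtra had log2 differences of -0.05, -1.08, 0.10 and 0.01 and did not pass.

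Of the 68 genes that passed without rFsh 69, 62 did not pass with it, so the set is by selection rich in genes for which this fish departs from the other rFsh fish. For 54 of the 68, rFsh 69 lay nearer the mean of the rLh fish. For the other 14 it lay nearer the mean of the other rFsh fish. For 35 of the 68 it lay beyond all 5 rLh fish, on the side away from the other rFsh fish. nanog, a gene of undifferentiated germ and stem cells, was at 28 CPM in rFsh 69, 6.10 to 10.6 CPM in the other rFsh fish and 13.3 to 18.8 CPM in the rLh fish. meiob, which acts in meiotic recombination, was at 4.47 CPM in rFsh 69, 10.9 to 17.0 CPM in the other rFsh fish and 5.01 to 7.20 CPM after rLh. pdha1b, a pyruvate dehydrogenase subunit, was at 42.7 CPM in rFsh 69, 67.5 to 71.6 CPM in the other rFsh fish and 46.6 to 51.2 CPM after rLh. With rFsh 69 left out, these 3 passed edgeR (adjusted p = 0.047, 0.0451 and 0.0355), and with it none did. nanog, pdha1b, hsd3b1 and hsd11b2 were chosen after their values were seen.

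**Figure D4:**
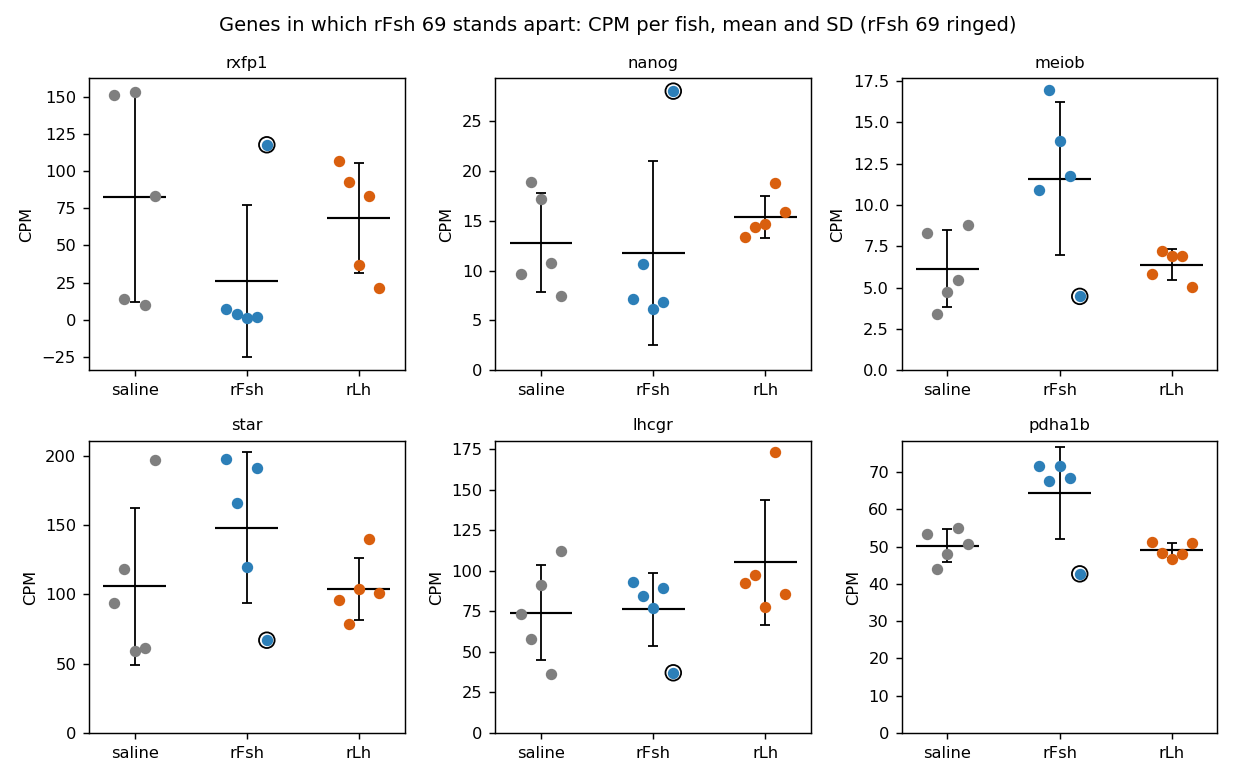
CPM of 6 genes for which rFsh 69 (ringed) stands apart from the other rFsh fish, 1 point per fish for saline, rFsh and rLh (5 each), with mean and SD. rFsh 69 is at 118 CPM for rxfp1 and 28 CPM for nanog, above the other rFsh fish, and is the lowest rFsh fish for meiob, star, lhcgr and pdha1b.

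Genes for the cytosolic ribosome, which makes protein, lay on the same side. All 76 tested ribosomal protein genes had a higher fitted level after rLh, against 50.7% of all tested genes, with a median log2 difference of 0.26 against 0.00 over all tested genes. Of the 76, 70 had an unadjusted p below 0.05 on the higher side, against 5.71% of all genes, 15 passed DESeq2 (background 0.589%) and 0 passed edgeR. The 5 rLh fish were above the 5 rFsh fish for 16 of them (background 0.824%). The share of reads in the 10 most abundant genes also differed without overlap, at 4.00% to 4.57% after rLh and 3.50% to 3.61% after rFsh (3.83% to 4.89% in saline fish), and its part in this result and in the mitochondrial one was not tested.

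rpl15, of the large subunit, was at 682, 697, 636, 586 and 565 CPM after rLh and 519, 541, 498, 509 and 500 CPM after rFsh (log2 difference 0.32, edgeR adjusted p = 0.326). Saline fish lay at 524 to 824 CPM for rpl15. Summed over the 76 genes, the level was 32566 to 40250 CPM after rLh and 29951 to 32106 CPM after rFsh. This sum weighs abundant genes most. The mean centred log2 CPM of the 76 genes, which weighs them equally, overlapped. It was -0.049 to 0.269 after rLh and -0.167 to -0.045 after rFsh. The median difference was 0.22 to 0.31 with 1 fish left out.

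The 13 protein genes of the mitochondrial genome, a list added after its values were seen, were also all higher after rLh, with a median log2 difference of 0.32. COX3 and CYTB, of the respiratory chain, had log2 differences of 0.42 ± 0.08 and 0.44 ± 0.09 with groups that did not overlap (edgeR adjusted p = 0.196 and 0.245). In all, 4 of the 13 had groups that did not overlap (background 0.824%). Summed over the 13, the level did not overlap, at 29572 to 36865 CPM after rLh and 23395 to 28174 CPM after rFsh. The mean centred log2 CPM of the 13 overlapped, at -0.058 to 0.336 after rLh and -0.429 to -0.02 after rFsh. rFsh 69 was the lowest fish for the list, and the median was 0.24 without it.

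**Figure D5:**
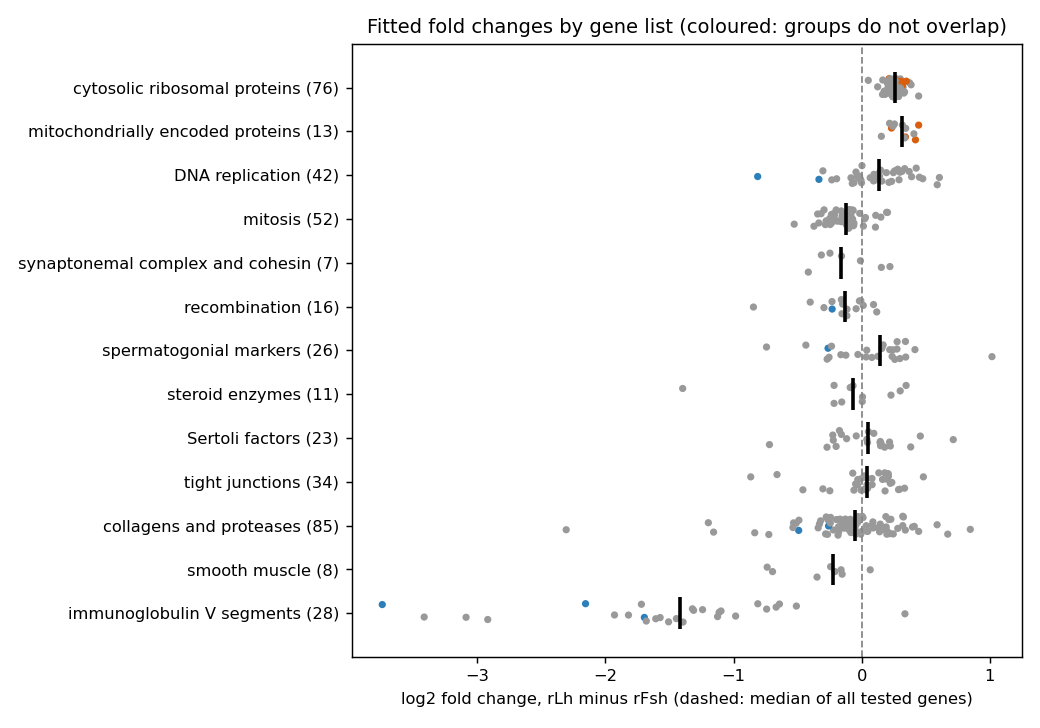
Fitted log2 difference, rLh minus rFsh, of each tested gene in 13 lists (number of genes in brackets), with the list median as a black bar and the median of all tested genes as a dashed line. Coloured points are genes whose groups do not overlap. The 76 ribosomal protein genes lie between 0.05 and 0.44, and 27 of 28 immunoglobulin V segments lie below 0.

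Among germ cell genes, those of meiosis tended to the other side. Of 7 synaptonemal complex and cohesin genes 5 were lower after rLh, as were 13 of 16 recombination genes, with medians of -0.16 and -0.13. Unadjusted p was below 0.05 on the lower side for 3 genes in each list, against 4.05% of all genes (49.3% of which were lower). None of these meiosis genes passed either tool (background 0.0287% for edgeR and 0.977% for DESeq2). Without rFsh 69, 7 of the 23 passed DESeq2 (background 7.61%). sycp1, which joins paired chromosomes, was at 504, 409, 464, 483 and 372 CPM in the rFsh fish and 347, 320, 333, 363 and 413 CPM in the rLh fish (log2 difference -0.32 ± 0.10, edgeR adjusted p = 0.39). It overlaps LOC122767809. The groups overlapped, since rLh 68 was above rFsh 62 and rFsh 69. mlh3, which resolves crossovers, was at 41.4 to 51.3 CPM after rFsh and 36.5 to 41.3 CPM after rLh, without overlap (log2 difference -0.23, edgeR adjusted p = 0.403).

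Of 52 genes of mitosis, 44 were lower after rLh (median -0.12), and birc5a, a survivin needed for chromosome segregation, passed DESeq2 alone (log2 difference -0.37, adjusted p = 0.0491). Without rFsh 69 the median was -0.22, and 23 genes rather than 4 had an unadjusted p below 0.05 on the lower side. Over all 20876 tested genes, those on the lower side also rose, from 846 to 1798. DESeq2 then called 13 of the 52, against 7.61% of all genes. Leaving out 1 fish at a time gave mitosis medians of -0.22 to -0.07. Of 42 DNA replication genes, 28 were higher (median 0.13), and without rFsh 69 the median was 0.23, with 15 rather than 3 genes at an unadjusted p below 0.05 on the higher side. Over all tested genes, those on the higher side rose from 1192 to 2050. The DNA replication median was 0.05 to 0.23 with 1 fish left out. The 2 replication genes with separate groups (background 0.704%) were lower, namely orc5, part of the origin recognition complex, at 4.21 to 6.93 CPM after rFsh and 2.24 to 3.58 CPM after rLh (DESeq2 adjusted p = 0.00922, edgeR adjusted p = 0.319), and tk1, a thymidine kinase, at 18.9 to 26.5 CPM and 16.4 to 18.4 CPM. Of 26 spermatogonial markers, 17 were higher and 9 lower. The axoneme genes of the sperm tail were split, with 21 higher and 35 lower and a median of -0.06, which turned without rFsh 69 to 30 higher and 26 lower and a median of 0.01.

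Cell junction genes, which form the blood-testis barrier, were split, with 53 of 94 higher after rLh, against 50.7% of all tested genes. Of 34 tight junction, 29 adherens junction, 15 gap junction and 16 integrin genes, 22, 17, 6 and 8 were higher after rLh. None of them passed either tool, where the background was 0.0287% for edgeR and 0.977% for DESeq2. Without rFsh 69, 5 of the 94 passed DESeq2, against 7.61% of all genes. cldni, matched to human claudin CLDN4, was at 1.43, 1.08, 4.14, 2.40 and 3.15 CPM in the rFsh fish and 1.52, 1.05, 1.3, 1.27 and 1.45 CPM in the rLh fish. The rFsh fish were spread widely and overlapped the rLh fish (log2 difference -0.87 ± 0.33, edgeR adjusted p = 0.452). cdh11, a cadherin, was at 43.4 to 55.1 CPM after rFsh, 35.4 to 44.6 CPM after rLh and 48.0 to 56.3 CPM in saline fish (log2 difference -0.28, edgeR adjusted p = 0.371).

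Collagens and proteases were lower for 52 of 85 genes, and 3 passed DESeq2 on the lower side (background 0.388%). col4a3 and col4a4, which encode basement membrane collagen and overlap each other, were at 128 to 179 and 84.8 to 123 CPM after rFsh, and 87.7 to 125 and 58.6 to 85.2 CPM after rLh (log2 difference -0.49 and -0.54, DESeq2 adjusted p = 0.0243 and 0.0169, edgeR adjusted p = 0.327 and 0.326).

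Markers of other cells moved for some genes. Of 8 smooth muscle genes 7 were lower after rLh (median -0.23), with summed levels of 1139 to 1937 CPM against 1401 to 2086 CPM after rFsh. Of 12 skeletal muscle genes 9 were lower, among them atp2a1, the calcium pump of muscle, at 0.371 to 0.851 CPM after rLh and 0.943 to 2.98 CPM after rFsh (DESeq2 adjusted p = 0.0183, edgeR adjusted p = 0.327). The summed level of the skeletal muscle list was 410 to 445 CPM after rLh and 398 to 493 CPM after rFsh. mylpfa, a defining marker, was at 0 counts in each of the 10 fish. The part of these cells in the other differences was not tested.

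Of 28 immunoglobulin V segments tested, a list added after its values were seen, 27 were lower after rLh (median -1.42), and 5 passed DESeq2 (background 0.388%). The rest of the 88 segments in the count table were under 50 counts in each of the 10 fish. Summed over the 28, the level was 11 to 21 CPM after rLh and 22 to 97 CPM after rFsh. Their mean centred log2 CPM overlapped, at -0.836 to -0.073 after rLh and -0.159 to 2.061 after rFsh. A segment could pass the filter through 1 high rFsh fish alone, so the count of lower segments is partly set by the filter. The median log2 difference depended in part on rFsh 64, being -0.82 without that fish, and stayed below 0 with each fish left out in turn. LOC122786722 (LG20, 4047769 to 4048331) was at 3.08, 1.02, 2.35, 1.27 and 1.0 CPM in the rFsh fish and 0.580, 0.557, 0.516, 0.517 and 0.491 CPM in the rLh fish (log2 difference -1.70 ± 0.33, edgeR adjusted p = 0.207). ighd, the constant region of IgD, was at 197, 170, 654, 268 and 150 CPM in the rFsh fish and 108, 143, 88.8, 183 and 98.3 CPM in the rLh fish (log2 difference -1.2, or -0.65 without rFsh 64, edgeR adjusted p = 0.402). It overlaps LOC122785350 and LOC122785364. V segments are similar copies of one another, so reads may be split among them. Of 16 lymphocyte genes 10 were higher and 6 lower after rLh, with cd79a, of the B cell receptor, at 0.912 to 2.22 CPM over the 10 fish.

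Plasma protein genes had no common direction, with 9 of 21 higher after rLh and 13 without rFsh 69. f9b, named for coagulation factor IX but matched by the study to human F10, was at 3.27, 0.573, 9.80, 11 and 1.3 CPM in the rLh fish and 0.119, 0.587, 0.116, 0.0907 and 0.287 CPM in the rFsh fish, where rFsh 62 was just above rLh 64 (log2 difference 4.47 ± 0.86, edgeR adjusted p = 0.202, DESeq2 adjusted p = 0.000194). Saline fish were at 0.104 to 0.464 CPM. Of the defining liver and plasma markers, f2 was at 1.9 to 11.9 CPM, fgg at 0.305 to 4.71 CPM, fgb at the level given above, plg at 0.159 to 0.560 CPM and fabp10a at 0.0484 to 0.199 CPM over the 10 fish, and their part in the level of f9b was not tested.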

How the data were processed

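One library per testis was made with a modified SMARTseq2 protocol and sequenced as read pairs. The authors trimmed reads with cutadapt 3.4, aligned them to the reference genome of the species (IFAPA_SoseM_1) with Subread 2.0.1 and deposited whole-number counts per gene, not normalised. The kit does not mark strand and no molecular identifiers are described, so overlapping genes and amplification copies cannot be told apart. Coordinates and overlaps are from RefSeq for that assembly, which matched 20862 of the 20876 tested genes. Human matches are those listed by the study.

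Counts of the 10 fish were fitted with edgeR 4.0.16 in R 4.3.3 (TMM factors, 1 mean per hormone, robust estimation off). DESeq2 1.42.0 was an alternative. Printed CPM use TMM factors over all 15 fish, while log2 differences are from the 10-fish fit, rLh minus rFsh. The SE of a log2 difference is its size divided by the square root of F. Lists are described by counts and medians without a test. The fits were tested on simulated data, where DESeq2 called more unchanged genes than edgeR did and more than its threshold allows, so genes past DESeq2 alone are less firm. Named genes were the 6 past the test, the 8 higher and 8 lower with the smallest p among non-overlapping genes with 50 counts in 5 fish, the 5 higher and 5 lower with the largest change among non-overlapping DESeq2 calls, 2 genes per list role, and the receptors and products of the hormones. Not each of them is described, and 1 is not reported here. Members, lists and this rule were chosen with earlier results of these data known. Alternatives were other normalizations, filters, samples in the fit, the replicate block and leaving out each fish. Nothing states a batch. Fish are separate animals.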

Additional observations from a re-analysis of the deposited data

Results flagged for a closer look

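In groups of 5, a fish whose gap to its nearest neighbour took more than 0.71 of the group's range was set apart (Dixon's 95% critical value). Of 250 groups looked at (named genes on the log2 CPM scale, list scores, depth and components), 18 held such a fish. Chance alone gives about 1 in 20 for separate groups chosen beforehand. These groups were not: lhcgr counts again as the receptor score, and some genes were picked after their values were seen. The 18 therefore cannot be set against that rate. No cause was tested for any of them.

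rFsh 69 stood apart for lhcgr, at a log2 CPM of 5.215, and so for the gonadotropin receptor score, which is lhcgr alone, at -1.203 around the mean of the 10 fish. It was also set apart for noxo1a at 0.6331, serpinf2b at 1.633, pdha1b at 5.416, prkar1b, a regulatory subunit of protein kinase A, at 6.44, and for the mitochondrially encoded list at a score of -0.429. pdha1b and prkar1b were picked after their values were seen.

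rLh 67 was the high fish for lhcgr (log2 CPM 7.436, receptor score 1.019) and for hsd11b2 (10.13). rFsh 62 was high for the score of the synaptonemal complex and cohesin genes (0.378), the apolipoprotein and intestinal lipid genes (0.292) and the macrophage and granulocyte genes (0.274). rLh 68 was low for the apolipoprotein and lipid score (-0.135), and rLh 64 was high for the red blood cell score (0.583) and low for fosl1a, a subunit of the transcription factor AP-1 (log2 CPM 1.475). rFsh 68 was high for LOC122769366 (2.071) and low for blnk, an adaptor of B cell signalling (3.124).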

How the results depend on the processing

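The number of genes past an adjusted p of 0.05 moved most. Against 6 genes in edgeR with 10 fish, there were 204 with DESeq2, 2 with upper quartile factors, 2 with robust estimation, 1 with at least 50 counts in at least 5 fish, 0 with all 3 groups in 1 fit (2141 at an unadjusted p below 0.05), and 14 with rFsh 62 and rLh 68 both left out, of which 5 were among the 6. The labels' protocol gives 4 libraries per group where 5 are deposited, without naming them, and this pair was chosen with earlier results of these data known. With 1 fish left out edgeR gave 0 to 68 genes, with 0 without rFsh 61 (1775 unadjusted) and without rFsh 64 (1413 unadjusted), and DESeq2 gave 61 to 1588. DESeq2 gave 722 with rFsh 62 and rLh 68 both left out. TMMwsp factors, RLE factors, no filter and filterByExpr gave 6 to 9 genes, which included the same 6. The cause of these shifts was not tested.

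The fish numbers 64 and 68 occur under both hormones, but nothing says that they pair fish, and the deviations of same-numbered fish had correlations of -0.08 and 0.09. With the fish number as a replicate block edgeR called 3 genes, none of them among the 6, and with the block and all 3 groups in 1 fit it called 0 (2650 unadjusted). In both of these fits the log2 difference changed sign for hsd17b1, hsd17b7, synpo2la and hsd3b1. For hsd11b2 it did so only in the block fit of 10 fish, and for star2 and rxfp2a only in that of all 3 groups. None of these genes passed.

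The difference between the hormone groups took 17.24% to 24.85% of the distance with 1 fish left out (exact permutation p above 0.05 without rFsh 64, rLh 63 or rLh 67), and 26.49% with rFsh 62 and rLh 68 both left out. List medians with these 2 fish left out were 0.052 for steroid enzymes, 0.048 for gap junctions, -0.132 for AP-1, EGR and feedback genes and 0.319 for macrophages and granulocytes, and with 1 fish left out they were -0.083 to 0.047 for steroid enzymes, -0.116 to 0.085 for AP-1 genes and 0.046 to 0.309 for macrophages and granulocytes. Of 30 list medians, 12 changed sign with at least 1 fish left out, all of them between -0.10 and 0.05 with all 10 fish. The log2 differences that changed sign without the block all had edgeR adjusted p above 0.05. They were hsd17b1 (-1.71 to 1.56 with 1 fish left out), insl3 (-0.45 to 0.23), oxtra (-0.27 to 0.49, -0.008 without rFsh 62 and rLh 68, -0.003 with all 3 groups), rxfp2a (-0.16 to 0.16, 0.15 without rFsh 62 and rLh 68) and rxfp3.3a1 (-0.029 to 0.18, -0.066 without rFsh 62 and rLh 68).

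A gene under 50 counts in each of the 10 fish was not tested, and for LOC122766001 and LOC122760671 the rFsh counts are too few to fix the size of the difference.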

Other observations

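Among genes picked after their values were seen, scgn, erbb3b and prkar1b were higher in 4 of the 5 rFsh fish than in each rLh fish. scgn, a calcium-binding protein of secretory cells, was at 18.4, 15.4, 6.53, 7.80 and 2.97 CPM in the rFsh fish and 2.86 to 4.1 CPM in the rLh fish (log2 difference -1.57 ± 0.40, edgeR adjusted p = 0.336, DESeq2 adjusted p = 0.0112). erbb3b, a receptor of the EGF receptor family, was at 2.02 to 5.12 CPM after rFsh and 1.31 to 2.03 CPM after rLh (log2 difference -1.04, edgeR adjusted p = 0.319). prkar1b, a regulatory subunit of protein kinase A, was at 86.8 to 116 CPM after rFsh and 73.2 to 88.3 CPM after rLh (log2 difference -0.39, edgeR adjusted p = 0.319). The groups overlapped for these 3 genes through rFsh 69, and all 3 passed edgeR without that fish (adjusted p = 0.0455, 0.0455 and 0.0451). Saline fish were at 2.81 to 11.2 CPM for scgn.

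Long noncoding RNAs made up 15 of the 204 genes that DESeq2 called (7.35%) and 3.75% of the genes tested. The remaining lists had no member past edgeR (background 0.0287%) and only amh past DESeq2 (background 0.977%) with all 10 fish. Without rFsh 69, DESeq2 called 7.61% of all tested genes. Among them were 4 of the 23 Sertoli cell factors, 4 of the 26 spermatogonial markers and 3 of the 34 AP-1, EGR and feedback genes. So were 2 of 25 cholesterol synthesis genes and 2 of 13 red blood cell genes. The Leydig cell and peptide factors, the steroid receptors and regulators and the cholesterol delivery genes had 1 each. The spermatid and sperm proteins, the apolipoprotein and lipid genes and the macrophage and granulocyte genes had 0. Of 23 Sertoli cell factors, 13 Leydig cell and peptide factors, 10 steroid receptors and regulators, 4 cholesterol delivery genes, 18 spermatid and sperm proteins, 34 AP-1, EGR and feedback genes, 25 cholesterol synthesis genes, 9 apolipoprotein and lipid genes, 13 red blood cell genes and 14 macrophage and granulocyte genes, 14, 9, 9, 1, 11, 18, 10, 5, 6 and 9 had a higher fitted level after rLh. Among the spermatogonial markers, kitb, a receptor for stem cell factor, was at 2.95 to 7.69 CPM after rFsh and 2.57 to 4.99 CPM after rLh (log2 difference -0.74, edgeR adjusted p = 0.438).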
